A study of Mus musculus with 6 samples.

Results

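A group of 9 complement genes was followed in unstimulated bone marrow-derived macrophages (BMDMs) with and without ATP citrate lyase (Acly), the enzyme that makes cytosolic acetyl-CoA from citrate. The 9 genes, out of 24562 in the count table, were chosen by name as complement genes, by a rule that names no measured value but was set with earlier results of these data known. They are *C1qa*, *C1qb* and *C1qc*, which encode the chains of the recognition protein C1q, *C3*, *Cfp* (properdin) and *Cfb* (factor B), and the receptor genes *C3ar1*, *C5ar1* and *Itgam*. Each gene was represented by its RefSeq transcript with the highest total count.

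The series record describes the mice as female, whereas the study's methods speak of both sexes for its in vitro work. AclyM-KO mice carried *Acly* with a loxP-flanked exon and Cre recombinase under the *Lyz2* promoter (LysMcre), which is active in macrophages, monocytes and neutrophils. Control mice were Cre-negative and carried the same floxed *Acly*, and are marked WT in the sample labels. Cells of both groups were grown in L929-conditioned medium and labelled naive, meaning that neither LPS nor IL-4 was added. There were 3 control and 3 AclyM-KO libraries. The study's legends describe expression values from this series as technical replicates from pooled mice. The p-values here thus measure the spread between such libraries, not the spread between mice.

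Total counts over all transcripts were between 19327459 and 23582992 in control libraries and between 19797218 and 44507233 in AclyM-KO libraries, the highest being AclyM-KO replicate 2. That library was also the AclyM-KO library farthest from the control mean in 8 of the 9 genes, so fold changes without it are given beside those of the 9 genes and of the other complement genes called. *Acly* itself was at 229.7 ± 8.18 CPM (counts scaled to library size; mean ± SD of 3 libraries) in controls against 96.8 ± 3.06 CPM in AclyM-KO macrophages. A list of 6 macrophage markers, among them *Adgre1*, *Csf1r*, *Cd68*, *Mertk* and *Fcgr1*, was detected in full in every library. Its summed level was 7742 to 8013 CPM in control and 6083 to 7378 CPM in AclyM-KO libraries, without overlap. Control and AclyM-KO means were 3237 and 2325 CPM for *Csf1r*, 2411 and 2426 for *Cd68*, and 1635 and 1722 for *Adgre1*. The other markers of the list averaged at most 225.6 CPM, so the fall in the sum was mostly that of *Csf1r*. Of the markers named, *Csf1r* (log2 fold change, log2FC, of -0.48) and *Mertk* (-0.67) were lower, and *Adgre1*, *Cd68* and *Fcgr1* did not pass the threshold. The call of *Csf1r* was lost with any control library or AclyM-KO replicate 3 left out and with summed transcript counts. Without AclyM-KO replicate 2 the log2FC of *Csf1r* was -0.30 and that of *Mertk* was -0.55.

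Complement is a cascade of plasma and tissue proteins that marks microbes, dying cells and debris for removal. It starts from C1q (classical pathway), from lectins, or from spontaneous turnover of C3 that factor B and properdin amplify (alternative pathway), and all routes cleave C3. The fragments C3a and C5a attract and activate leukocytes through C3aR and C5aR1, and cleaved C3b is recognised on targets by the integrin αMβ2 (CR3, CD11b/CD18) and other receptors. The liver makes most plasma complement, but macrophages are a main source of C1q and also make properdin and some C3.

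In AclyM-KO macrophages the transcripts of every C1q chain and of *C3* fell, and *C5ar1* was the gene of the 9 that rose. In the fitted fold changes *C1qa* fell by 40.5%, *C3* fell by 28.6%, *C1qc* fell by 24.99% and *C1qb* fell by 24.5%. The rise of *C5ar1* was 17.6%, and *Cfp*, *Cfb*, *C3ar1* and *Itgam* did not pass the threshold. With edgeR's quasi-likelihood test and an adjusted p of 0.05 or less over all genes tested, 4 of the 9 genes (44.4%) were lower and 1 (11.1%) was higher. Over all 11470 genes tested, 5.65% were lower and 6.7% were higher. In 7 of the 9 genes control and AclyM-KO values were fully separated, compared with 32.8% of all genes tested. All 9 genes passed the filter on low counts. Their median log2 fold change was -0.16, against 0.00 over all genes tested. DESeq2 gave the same counts of 4 lower and 1 higher, against 5.55% lower and 6.47% higher over all genes tested.

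**Figure D1:**
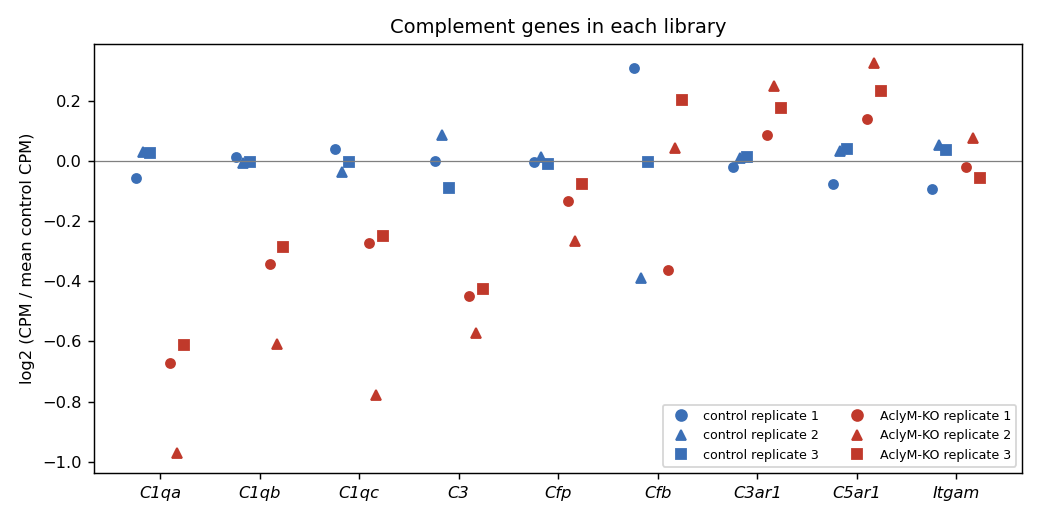
Level of each of the 9 genes in each library, as the log2 ratio of its CPM to the mean control CPM (0 on the vertical axis); colours are the groups and symbols the replicates. All AclyM-KO points of *C1qa*, *C1qb*, *C1qc*, *C3* and *Cfp* lie below the control points, those of *C3ar1* and *C5ar1* lie above, and those of *Cfb* and *Itgam* overlap them.

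C1q is assembled from equal numbers of A, B and C chains, whose genes lie next to each other on chromosome 4. *C1qa* (NM_007572, mm10 chromosome 4, 136895916 to 136898844) was at 201.5, 213.6 and 213.2 CPM in control replicates 1, 2 and 3 and at 131.4, 106.7 and 137.1 CPM in AclyM-KO replicates 1, 2 and 3. Every AclyM-KO library was thus below every control library, and AclyM-KO replicate 2 was lowest. By the edgeR fit its log2FC was -0.75 ± 0.091 (SE) with an adjusted p of 4.50e-04, or -0.64 without AclyM-KO replicate 2. Of all genes tested, 4.39% had a larger absolute log2 fold change.

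*C1qb* (NM_009777, 136880126 to 136886200) was at 1712, 1689 and 1696 CPM in control and at 1339, 1115 and 1394 CPM in AclyM-KO libraries. The control values lay within a narrow range and all AclyM-KO values were below it. edgeR gave a log2FC of -0.41 ± 0.082 (SE) with an adjusted p of 0.00826. It was -0.31 without AclyM-KO replicate 2, and without control replicate 3 the adjusted p was 0.0510.

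*C1qc* (NM_007574, 136889801 to 136892936) was at 1567, 1484 and 1519 CPM in control and at 1261, 887.7 and 1281 CPM in AclyM-KO libraries. The groups again did not overlap, and AclyM-KO replicate 2 stood well below the other AclyM-KO libraries. edgeR gave a log2FC of -0.41 ± 0.116 (SE) with an adjusted p of 0.0374, and it was -0.26 (adjusted p = 4.75e-04) without that library. With any control library left out it missed the threshold, with adjusted p between 0.0981 and 0.132 and log2 fold changes between -0.43 and -0.39.

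The fitted fall was larger in *C1qa* than in its partner chains. A ratio of 2 transcripts within a library does not depend on how libraries are scaled, so the 3 ratios of read counts were compared, a comparison chosen after the values were seen. *C1qa* had 0.118, 0.126 and 0.126 counts for each count of *C1qb* in control libraries and 0.0981, 0.0957 and 0.0984 in AclyM-KO libraries. This ratio was lower in every AclyM-KO library, by 21.0% on average of the log2 ratios (two-sided exact permutation test, p = 0.10, adjusted over 3 ratios p = 0.15). With 3 libraries in each group, 0.10 is the smallest p this test allows. The ratio of *C1qa* to *C1qc* was likewise lower, by 19.8% (exact permutation p = 0.10, adjusted p = 0.15), with control values of 0.129 to 0.144 and AclyM-KO values of 0.104 to 0.120. The ratio of *C1qb* to *C1qc* was 1.09 to 1.14 in control and 1.06 to 1.26 in AclyM-KO libraries, which overlap (exact permutation p = 1).

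**Figure D2:**
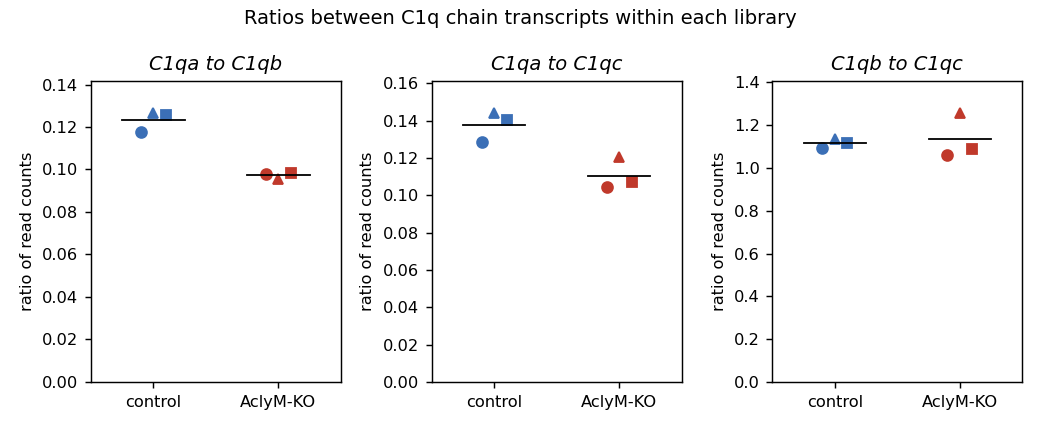
Ratio of the read counts of each pair of C1q chain transcripts within each library, by group (circles replicate 1, triangles replicate 2, squares replicate 3, horizontal lines the group means), on axes that start at 0. Both ratios with *C1qa* as numerator are lower in all AclyM-KO libraries, and the ratio of *C1qb* to *C1qc* overlaps between the groups.

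*C3* encodes the central component, whose cleavage gives C3a and the opsonin C3b. It (NM_009778, chromosome 17, 57203967 to 57228136) was at 64.0, 67.9 and 60.2 CPM in control and at 46.9, 43.0 and 47.7 CPM in AclyM-KO libraries. The groups were well separated, and no AclyM-KO library stood apart as far as in the C1q genes. edgeR gave a log2FC of -0.49 ± 0.082 (SE) with an adjusted p of 0.00321, or -0.44 without AclyM-KO replicate 2, and the call held in all 15 alternative fits.

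The alternative pathway genes did not pass the threshold. *Cfp* (NM_008823, chromosome X, 20925454 to 20931555) encodes properdin, which stabilises the C3 convertase. It was at 924.2, 935.5 and 919.4 CPM in control and at 844.0, 770.9 and 878.6 CPM in AclyM-KO libraries. All AclyM-KO libraries were below all control libraries, which held for 16.6% of all genes tested. The log2 fold change was -0.16 (95% confidence interval -0.30 to -0.01, adjusted p = 0.153 in edgeR), and -0.10 without AclyM-KO replicate 2.

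*Cfb* (NM_008198, chromosome 17, 34856374 to 34862514) encodes factor B, the enzyme subunit of that convertase, and was nearly silent. Control libraries held 32, 24 and 26 reads of it and AclyM-KO libraries 21, 64 and 31, or 1.79 to 2.91 and 1.83 to 2.70 CPM. The groups overlapped fully. At this depth the 95% confidence interval of the log2 fold change (0.00, adjusted p = 0.995 in edgeR) ran from -0.56 to 0.57 (log2FC -0.03 without AclyM-KO replicate 2), so changes within that range were not detectable. Its exons share 2246 bases with those of the predicted gene *Gm20547* on the same strand, and reads on them cannot be assigned to 1 of the genes.

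Of the anaphylatoxin receptors, *C5ar1* (NM_001173550, chromosome 7, 16246743 to 16259540), which encodes the C5a receptor, was at 371.4, 400.6 and 402.6 CPM in control and at 431.2, 490.0 and 460.1 CPM in AclyM-KO libraries. Every AclyM-KO library was above every control library, with the highest value in AclyM-KO replicate 2. edgeR gave a log2FC of 0.23 ± 0.070 (SE) with an adjusted p of 0.0479, and 0.19 (adjusted p = 0.0161) without that library. This call was close to the threshold. It was lost with any control library left out (adjusted p between 0.130 and 0.218), without AclyM-KO replicate 3 (0.0979) and with the counts of all its transcripts summed (0.0543).

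*C3ar1* (NM_009779, chromosome 6, 122847140 to 122856157) encodes the C3a receptor. It was at 1566, 1599 and 1604 CPM in control and at 1686, 1888 and 1797 CPM in AclyM-KO libraries. The groups did not overlap, and an order with all AclyM-KO libraries above held for 16.3% of all genes tested. Its log2 fold change of 0.17 (95% confidence interval 0.03 to 0.31, adjusted p = 0.111 in edgeR) missed the threshold, which it passed with limma-voom and sample weights (adjusted p = 0.0266) and without AclyM-KO replicate 2 (log2FC 0.13, adjusted p = 0.0481).

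*Itgam* (NM_008401, chromosome 7, 128062640 to 128118491), the αM chain CD11b of complement receptor 3, was at 800.1, 884.3 and 875.7 CPM in control and at 842.1, 898.8 and 820.9 CPM in AclyM-KO libraries. The libraries of the groups were interleaved. The log2 fold change was 0.00, with a 95% confidence interval of -0.15 to 0.15 (adjusted p = 0.993 in edgeR), and -0.04 without AclyM-KO replicate 2. Its exons share 3450 bases with the predicted gene *Gm49368* on the same strand.

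**Figure D3:**
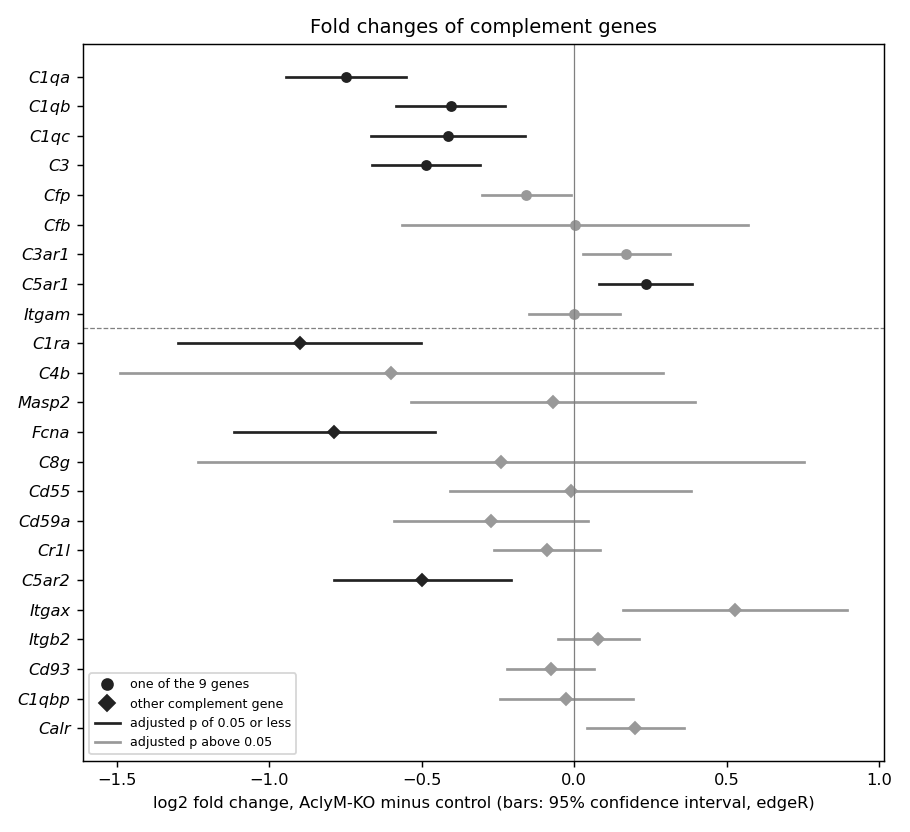
Log2 fold change between AclyM-KO and control macrophages (horizontal axis) with 95% confidence intervals from edgeR for the 9 genes (circles, above the dashed line) and 14 of the 15 other complement genes tested (diamonds), black where the adjusted p was 0.05 or less. *C1qa*, *C1qb*, *C1qc*, *C3*, *C1ra*, *Fcna* and *C5ar2* lie on the negative side, and *C5ar1* is the only black point on the positive side.

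Levels were compared between genes as RPKM (CPM divided by transcript length in kilobases). In control macrophages *C1qb* was at 1562 ± 11.03 RPKM (SD, n = 3) and *C1qc* at 1266 ± 34.6 RPKM, ranks 20 and 24 of 11253 tested genes with a known transcript length. *Cfp* followed at 566.3 ± 5.06, *C3ar1* at 369.2 ± 4.85, *C1qa* at 201.4 ± 6.59, *Itgam* at 183.6 ± 9.97 and *C5ar1* at 154.1 ± 6.87 RPKM (SD, n = 3 each). *C3* was at 12.5 ± 0.755 RPKM and *Cfb* at 0.859 ± 0.204 RPKM. No neighbours in this order overlapped between control libraries. The transcript of the A chain was thus far below those of its partner chains in these libraries.

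In AclyM-KO macrophages the order changed for *C1qa*. At 120.3 ± 15.5 RPKM (SD, n = 3) it lay below *Itgam* (183.7 ± 8.66) and *C5ar1* (181.3 ± 11.6), whose libraries overlapped each other, and its rank went from 214 to 449. *C1qb* (1179 ± 136 RPKM) and *C1qc* (950.4 ± 184 RPKM) also overlapped. *Cfp* stayed at 508.1 ± 33.6 and *C3ar1* at 415.8 ± 23.6 RPKM, without overlap.

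**Figure D4:**
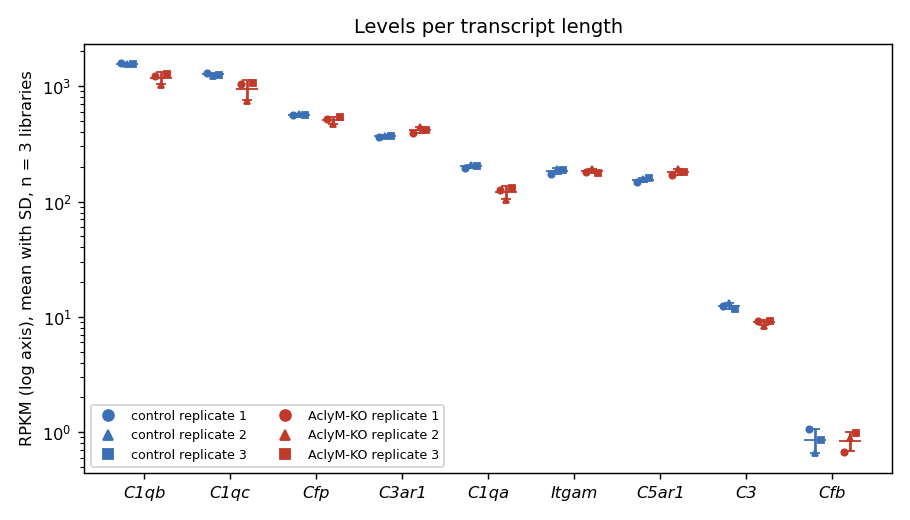
RPKM of the 9 genes on a log axis, ordered by the control mean, with each library as a point and the mean and SD of 3 libraries as bars. *C1qb* and *C1qc* are the highest of the 9 genes in both groups, *Cfb* is the lowest, and *C1qa* drops from above to below *Itgam* and *C5ar1* in AclyM-KO libraries.

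Start-site windows are shown for C1q chains and *C3*, as the sequence next to transcripts that moved together. RefSeq promoter sequences (GRCm38.p6, the mm10 assembly) were matched by symbol for 7 of the 9 genes, all but *C1qa* and *Cfb*. They belong to the start that RefSeq gives the gene, which need not be that of the transcript measured here. The windows of *C1qb* and *C3* had 0 bases inside the measured transcript, that of *C1qc* had 22, and that of *C5ar1*, which is not shown, had 202. Each line gives the 250 bases before that RefSeq start, 5′ to 3′ on the gene's strand, with capitals for matches, on either strand, to GAGGAA (the PU.1 core), TGCTGA (a core of MAF sites) or TATAAA.
C1qb, chr4:136886201-136886450, minus strand: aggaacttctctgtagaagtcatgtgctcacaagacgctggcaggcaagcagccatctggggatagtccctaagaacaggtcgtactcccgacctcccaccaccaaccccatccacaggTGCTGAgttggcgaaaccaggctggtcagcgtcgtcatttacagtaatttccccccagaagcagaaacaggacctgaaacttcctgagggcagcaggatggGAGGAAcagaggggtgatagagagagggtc
C1qc, chr4:136892915-136893164, minus strand: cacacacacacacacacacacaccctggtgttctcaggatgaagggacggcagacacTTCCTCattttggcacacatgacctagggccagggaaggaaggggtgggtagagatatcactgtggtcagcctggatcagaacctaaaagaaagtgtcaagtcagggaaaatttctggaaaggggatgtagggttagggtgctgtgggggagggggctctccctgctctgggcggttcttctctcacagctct
C3, chr17:57228137-57228386, minus strand: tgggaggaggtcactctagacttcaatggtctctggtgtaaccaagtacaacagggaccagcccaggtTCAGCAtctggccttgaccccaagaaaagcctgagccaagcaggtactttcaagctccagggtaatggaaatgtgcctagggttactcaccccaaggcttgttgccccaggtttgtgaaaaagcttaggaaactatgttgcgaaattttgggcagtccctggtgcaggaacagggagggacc
The window of *C1qb* held GAGGAA at -30 to -25 and TGCTGA at -131 to -126 from the start, and that of *C1qc* held GAGGAA on the other strand at -193 to -188. The window of *C3* held 1 match to TGCTGA. Genes that did not fall held such matches too, with 1 TGCTGA in the windows of *C5ar1* and *C3ar1* each, 1 TATAAA in that of *C3ar1* and 2 GAGGAA in that of *Itgam*, and *Cfp* held 0 of these motifs. Of 32851 such windows of all genes, 23.3% held GAGGAA, 16.1% TGCTGA and 12.4% TATAAA. The LXR direct repeat (AGGTCA, any 4 bases, AGGTCA), which occurred in 0.0152% of all windows, and the STAT motif TTCNNNGAA (7.02%) had no match in the 7 windows. These matches describe letters only.

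Other genes of the complement system were read from a list of 45 that leaves out the 9 above. The filter on low counts left 15 of them, and of the other 30, 23 had at most 3 counts in every library and 15 had 0 in all 6. In edgeR, 3 of the 15 were lower and 0 were higher in AclyM-KO macrophages, with a median log2 fold change of -0.09. These shares were 20% and 0%, against 5.65% lower, 6.7% higher and a median of 0.00 over all genes tested. At an unadjusted p below 0.05, 3 were lower and 2, *Itgax* and *Calr*, were higher, against 13.3% lower and 13.9% higher over all genes tested. DESeq2 called 3 lower genes and 1 higher gene, *Itgax*. limma-voom with sample weights called 3 lower genes and 1 higher gene, *Calr* (adjusted p = 0.0308), where 9.39% of all genes tested were lower and 9.68% were higher.

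All 3 lower genes were weakly expressed. *C1ra*, the protease that C1q carries and activates, had 55, 75 and 62 reads in the control libraries against 36, 71 and 34 in the AclyM-KO libraries, of which AclyM-KO replicate 2 was the most deeply sequenced. This was 5.40 ± 0.345 and 2.93 ± 0.228 CPM (SD, n = 3 each), for which edgeR gave -0.90 ± 0.182 (log2FC ± SE) and an adjusted p of 0.00826. *Fcna*, the macrophage ficolin of the lectin pathway, was at 12.7, 10.4 and 12.1 CPM in control and at 7.49, 5.93 and 7.24 CPM in AclyM-KO libraries, for which edgeR gave a log2FC of -0.79 and an adjusted p of 0.00633. Groups did not overlap in either gene, and both calls held in all 15 alternative fits. Without AclyM-KO replicate 2 the log2FC was -0.82 for *C1ra* and -0.66 for *Fcna*.

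*C5ar2*, the other C5a receptor, which does not couple to G proteins, went down while *C5ar1* went up. It was at 11.004, 12.3 and 13.3 CPM in control and at 9.14, 8.09 and 8.81 CPM in AclyM-KO libraries, and the groups did not overlap. edgeR gave a log2FC of -0.50 ± 0.133 (SE) with an adjusted p of 0.0314. It missed the threshold with any control library (adjusted p 0.0640 to 0.145) or AclyM-KO replicate 3 (0.0632) left out, and without AclyM-KO replicate 2 the log2FC was -0.44.

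The β2 partner chain of *Itgam* and the related α chain gene *Itgax* were measured too. *Itgb2*, the β2 chain CD18 that αM needs to reach the cell surface, averaged 832.3 ± 18.7 CPM in controls against 879.5 ± 24.2 CPM in AclyM-KO libraries (SD, n = 3 each), for which edgeR gave a log2FC of 0.08 and an adjusted p of 0.441. *Itgax*, the αX chain of complement receptor 4, was at 13.4, 19.6 and 16.9 CPM in control and at 21.9, 29.5 and 19.7 CPM in AclyM-KO libraries. The groups just failed to overlap. Its log2 fold change of 0.53 (standard error 0.169) had an adjusted p of 0.0629 in edgeR and of 0.0291 in DESeq2. Without AclyM-KO replicate 2 it was 0.32 (adjusted p = 0.103 in edgeR).

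Of the proteins that act next to C3, the inhibitor gene *Cr1l* averaged 59.5 ± 2.22 CPM in controls against 55.9 ± 3.87 CPM in AclyM-KO libraries (SD, n = 3 each), with a log2FC of -0.09 by edgeR (adjusted p = 0.521). *C2* had 5 to 13 counts per library and *C4b*, a near copy of *C4a*, 4 to 15, so the genes of the classical convertase had too few reads for a precise comparison. *Cfd*, the protease that cleaves factor B, had 0 counts in every library, which allows at most 0.273 CPM in any of the 6 libraries by counting error. *Hc*, which encodes C5, had 1 count in 1 library and 0 in the others.

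The genes with the profile most like C1q were found by Pearson's correlation of log2 CPM with the mean of *C1qa*, *C1qb* and *C1qc* over the 6 libraries, which share their group difference and the position of AclyM-KO replicate 2. They were *Usf1* (r = 0.9993), *Zfp36l1* (0.999), *Adap2* (0.9975), *Tgfbr2* (0.9974) and *Casp2* (0.9972). *Usf1*, for example, was at 47.4, 47.3 and 47.7 CPM in control and at 37.8, 30.6 and 39.0 CPM in AclyM-KO libraries, with the same order of AclyM-KO libraries as *C1qb* and *C1qc*.

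Markers of other cells and of proliferation were read beside these results. The summed level of 6 proliferation genes was 382.0, 412.5 and 453.4 CPM in control and 542.9, 763.0 and 559.8 CPM in AclyM-KO libraries. Of the 6, 5 passed the threshold as higher, against 6.7% of all genes tested. AclyM-KO replicate 2 was thus highest for proliferation genes and lowest for the C1q genes and *C3*, and the part of proliferation in these results was not tested.

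The 8 neutrophil and granulocyte precursor genes summed to 27.5 to 31.1 CPM in control and 28.7 to 30.4 CPM in AclyM-KO libraries. The 3 monocyte genes summed to 44.3 to 57.0 and 25.9 to 38.3 CPM, and *F13a1* among them was lower. Dendritic, B, T and NK, mast, erythroid and stromal marker lists summed to at most 4.48 CPM in any library, and *Cd3e*, *Hba-a1*, *Hbb-bs* and *Col3a1* had 0 counts throughout. In bulk RNA, fewer cells of a kind and less RNA per cell cannot be told apart.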

How the data were processed

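RNA of unstimulated BMDMs was measured in 3 control and 3 AclyM-KO libraries. Per the labels, the submitters used STAR 2.5.2b and the mm10 build, and the study's methods add strand-specific KAPA mRNA libraries, an Illumina HiSeq instrument, a SAMtools filter on mapping quality and HOMER2's analyzeRepeats.pl with default settings. The authors deposited raw tag counts per RefSeq transcript, not normalized, for 35745 transcripts, in which a read on a shared exon can be counted for several transcripts. Those sources do not spell out how the defaults treat strand, so reads from overlapping antisense genes may be included. Of 12 value columns, 6 belong to these libraries, and 6 other columns were not used.

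Symbols came from a RefSeq gene table (35435 transcripts) and GENCODE M21 (193), and 117 rows kept their accession. The transcript with the highest total stood for each of 24562 symbols. Differential expression was tested with edgeR 4.0.16 under R 4.3.3 (filterByExpr, TMM, quasi-likelihood test, genotype only) and Benjamini-Hochberg adjustment over 11470 genes, at a threshold of 0.05. Standard errors came from the F statistic. RPKM was TMM-scaled CPM per kilobase of the matching GENCODE transcript. Alternatives were DESeq2 1.42.0, limma-voom with sample weights, which down-weight libraries that vary more (limma 3.58.1), RLE or total-count scaling, other filters, a replicate block, other transcript choices, a threshold of 0.01 and each library left out. The 9 genes, the wider list and the markers were chosen with earlier results of these data known. Named genes are the 9, the genes of the wider list past the threshold, the direct partners of the 9 and the related chain gene *Itgax*. Named too are *Calr* (chosen after its values were seen), the 5 genes most like C1q, *Acly* and the markers. Some genes that this rule takes in are not reported here.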

Additional observations from a re-analysis of the deposited data

How the results depend on the processing

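Of 135 fits of single members under 15 alternatives, 114 kept the direction and the side of the threshold. *C1qa* and *C3* passed in all 15, *C1qb* in 14, *C1qc* in 12, *C5ar1* in 10 and *C3ar1* in 2. The count of lower members was 4 in edgeR and between 2 and 4 with each library left out (2 without control replicate 3). The count of higher members was 1 and ranged from 0 to 2 with a library left out. It was 2 with limma-voom and sample weights, and 0 with summed transcript rows, where 719 of 11648 genes tested were higher. At a threshold of 0.01, 0 members were higher and 3 lower, and 0 genes of the wider list were higher and 2 lower in place of 3. The share of all genes called at 0.01 was not computed, so these counts cannot be set against it. The count of higher genes in the wider list was 0 and ranged from 0 to 1 with a library left out; it was 1 with DESeq2, without a filter on low counts and with limma-voom.

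The signs of the genes near 0 turned. The log2FC of *Cfb* was -0.0071 with DESeq2, -0.0018 without a filter, -0.011 with summed rows and between -0.17 and 0.18 with a library left out. *Itgam* was at -0.0034 without a filter, -0.032 with limma-voom and between -0.044 and 0.028 with a library left out.

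The deviations of same-numbered libraries had correlations of 0.09, 0.11 and -0.05 across genes. Control replicates 1 and 2 correlated best with their own number and control replicate 3 with AclyM-KO replicate 2 (0.02). Not every pair was over 0.1, so the labels' numbers were not taken as pairs. With the replicate number as a block, 862 genes were higher and 721 lower in place of 768 and 648, members stayed at 1 higher and 4 lower, and 1 gene of the wider list, *Itgax*, was higher. Leaving out AclyM-KO replicate 2 gave 1105 and 1031 genes, and leaving out control replicate 1, 2 or 3 gave 363 and 235, 376 and 282, and 384 and 244. limma-voom gave 1110 and 1077. With total counts only, 64.4% of calls were higher in place of 54.2%. Low counts limited *Cfb*, *C2* and *C4b*, and 30 of the 45 genes of the wider list had too few counts to be tested.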
